A study of Mus musculus with 8 samples.

Results

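Oxidative phosphorylation and the tricarboxylic acid (TCA) cycle were followed here through 42 genes. Each stands for the respiratory complex or the cycle step that its protein belongs to. The list covers part of each pathway and was chosen with earlier results of these data known. A member was read from a probe set annotated to its symbol alone, and from the brightest such probe set where there were several. All but Cox7b, which was not analysed here, had such a probe set, so 41 of 42 members were measured, and all 41 lay above the intensity limit set over the whole array. They were 41 of 12856 genes tested. Every value below is the log2 of the deposited probe set intensity unless another scale is named.

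The study asked what fibroblast growth factor 18 (FGF18), a signalling protein of the developing lung, does to lung gene expression when a transgene supplies it. Total RNA from the lungs of 8 FVB/N pups was hybridised to Affymetrix arrays, 1 array per pup: Case D04, D34, D48 and D52, and Control D02, D40, D50 and D58. The genotype field was the same for all 8, SP-C-rtTA with (teto)7-FGF18, while the design text speaks of single and double transgenic littermates, which came as pairs from 4 litters and were picked for transgene induction. The titles tie no pup to a litter, and the labels used here give neither age nor the inducing drug regimen. The promoter of surfactant protein C, a product of distal lung epithelium, drives the activator rtTA, and rtTA acts on the tet operator sites in front of FGF18.

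In respiration the TCA cycle oxidises acetyl units and loads electrons onto carriers. Complexes I and II pass these electrons through ubiquinone to complex III, cytochrome c carries them to complex IV, and complex V uses the proton gradient to make ATP. Nuclear genes encode every member measured here. Lung holds many cell types, and cardiac muscle, which sheathes the pulmonary veins of mice, is far richer in mitochondria than most of them.

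Fgf18 itself read 10.82, 12.09, 9.82 and 7.66 in Case pups D04, D34, D48 and D52, against 7.05, 7.76, 7.11 and 7.07 in Control pups D02, D40, D50 and D58. The library labelled Case D52 lay within the Control range, so the counts and the main differences are also given without it. Array medians were 7.02 to 7.12. For Actb, the 3′ probe set exceeded the 5′ one by 0.32 to 0.43 in Case pups and by 0.36 to 0.40 in Control pups. For Gapdh the same gap was 0.15, -0.04, 0.01 and -0.02 in Case pups D04, D34, D48 and D52. In Control pups D02, D40, D50 and D58 it was 0.04, 0.18, 0.04 and 0.01, so Control D40 and Case D04 stood highest. All 9 alveolar type 2 markers measured were above the intensity limit. The number of arrays limits the precision, and nothing in whole-lung RNA separates fewer cells of a type from less RNA per cell.

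No difference between Case and Control was detected for any member. None of 41 passed the threshold of 0.05 on the adjusted p of limma, none had an unadjusted p under 0.05, and in all 41 the Case and Control values overlapped. Over all 12856 genes, 0.00778% passed the adjusted threshold (1 gene, Abca3, a lipid transporter of alveolar type 2 cells, at -0.98 with an adjusted p of 0.0108), 6.29% had an unadjusted p under 0.05 and 3.96% had groups that did not overlap. The median difference, Case minus Control, was -0.02 over the members and -0.01 over all genes. It was below 0 in 28 of 41 members (68.3%), against 55.0% of all genes. After each array was centred on its own median, a step that moved every gene by the same 0.05, 36.6% of members and 37.0% of all genes were below 0.

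The differences ran from -0.19 for Cycs to 0.13 for Ndufb2. A difference smaller than 0.1, a 1.07-fold ratio, was found in 34 of 41 members (82.9%). The same held for 63.4% of all genes and for 69.8% of the 2580 genes at least as bright as the dimmest member. The 95% intervals held 0 for 41 of 41 members and lay within -0.5 to 0.5, a 1.41-fold ratio either way, for 40 of them. The exception was Cycs, whose lower bound of -0.51 is a 0.704-fold ratio. For 27 members the interval lay within -0.25 to 0.25, a 1.19-fold ratio. The spread between pups was near that of other genes: the median SD was 0.13 in Case pups (0.13 over all genes) and 0.10 in Control pups (0.10 over all genes). For the 2580 genes at least as bright as the dimmest member, the median Control SD was 0.09 and the median difference 0.01. The plot of each member's difference shows these intervals by complex.

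**Figure D1:**
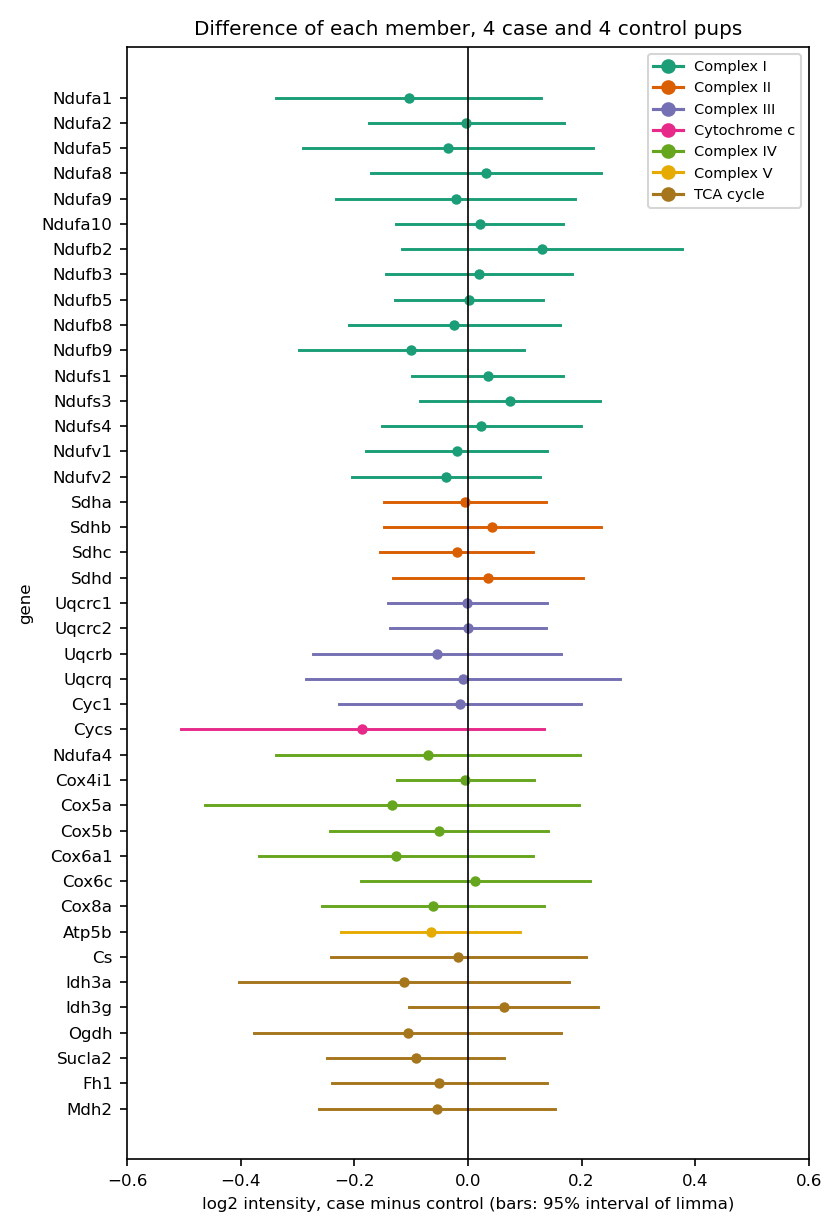
Difference in log2 intensity, Case minus Control, for each of 41 members (points) with the 95% interval of limma (bars), coloured by complex or cycle, 4 pups per group. Every bar crosses 0, Cycs lies farthest to the left at -0.19 and Ndufb2 farthest to the right at 0.13.

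Complex I, which takes electrons from NADH, was represented by 16 members, 8 above 0 and 8 below, with a median difference of -0.00. Ndufb2, an accessory subunit of the membrane arm, read 10.03, 9.88, 10.23 and 10.22 in Case pups D04, D34, D48 and D52, against 10.05, 9.70, 9.99 and 10.11 in Control pups D02, D40, D50 and D58. Case D48 and D52 stood above all Control pups, and Control D40 stood lowest. Its difference was 0.13 (SE 0.11, adjusted p = 0.785 by limma), and its SD between Control pups, 0.18, was the largest of any member. Ndufs3, a core subunit of the arm that faces the matrix, read 10.99, 10.95, 11.18 and 10.96 in Case pups, against 10.92, 10.88, 10.98 and 11.01 in Control pups. Only Case D48 lay above all Control pups. Ndufs1, the core subunit with several iron-sulfur centres, read 10.00, 10.02, 10.05 and 10.12 in Case pups, against 9.98, 9.97, 10.01 and 10.08 in Control pups. Its differences between pups were among the smallest in the complex, with SDs of 0.05 in both groups.

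Ndufb9, another membrane-arm subunit, read 11.24, 10.95, 11.28 and 11.34 in Case pups D04, D34, D48 and D52, against 11.27, 11.36, 11.24 and 11.35 in Control pups D02, D40, D50 and D58. Ndufa1, a small membrane-arm subunit encoded on the X chromosome, read 11.68, 11.36, 11.83 and 11.73 in Case pups, against 11.63, 11.84, 11.67 and 11.86 in Control pups. In both, Case D34 alone lay apart and low, while the other 3 Case pups fell among the Control pups. The differences were -0.10 for Ndufb9 (SE 0.09, adjusted p = 0.785 by limma) and -0.10 for Ndufa1 (SE 0.10, adjusted p = 0.808). The other 11 complex I members were Ndufa2, Ndufa5, Ndufa8, Ndufa9, Ndufa10, Ndufb3, Ndufb5, Ndufb8, Ndufs4, Ndufv1 and Ndufv2, and their differences ran from -0.04 to 0.03.

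Complex II, succinate dehydrogenase, belongs to both the respiratory chain and the TCA cycle. Sdhb, its iron-sulfur subunit, read 11.34, 11.28, 11.38 and 11.45 in Case pups D04, D34, D48 and D52, against 11.37, 11.09, 11.35 and 11.47 in Control pups D02, D40, D50 and D58. Sdhd, a membrane anchor, read 10.76, 10.78, 10.76 and 10.92 in Case pups, against 10.84, 10.61, 10.76 and 10.87 in Control pups. Here the low pup was Control D40 and not Case D34. Sdhc, the other anchor, read 10.35, 10.31, 10.33 and 10.38 in Case pups, against 10.37, 10.39, 10.42 and 10.26 in Control pups, with Control D58 lowest. Differences were 0.04 for Sdhb, 0.04 for Sdhd, -0.02 for Sdhc and -0.00 for Sdha, the flavoprotein subunit. The smallest adjusted p by limma among the 4 was 0.901, with a median difference of 0.02.

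Complex III moves electrons from ubiquinol to cytochrome c, and its 5 members had a median difference of -0.01. Uqcrb, a ubiquinone-binding subunit and the member with the highest mean intensity on these probe sets, read 12.91, 12.62, 13.06 and 13.00 in Case pups D04, D34, D48 and D52, against 12.88, 12.91, 12.94 and 13.07 in Control pups D02, D40, D50 and D58. Uqcrq, a small subunit, read 10.79, 10.35, 10.81 and 10.92 in Case pups, against 10.76, 10.54, 10.74 and 10.86 in Control pups. Case D34 was lowest in both. Cyc1, cytochrome c1, which hands electrons to cytochrome c, read 11.38, 11.25, 11.41 and 11.56 in Case pups, against 11.41, 11.21, 11.43 and 11.60 in Control pups, and its lowest pup was Control D40. The core proteins Uqcrc1 and Uqcrc2 differed by -0.00 and 0.00.

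Cycs, the somatic cytochrome c, had the largest difference of any member. Promoters are shown for the members furthest below the Control mean in Case D34, among those with a promoter sequence, and Cycs was the lowest. Its promoter carries the motif letters of NRF1, a regulator of respiratory genes, and of the cAMP response element (CRE). A match describes letters, not a bound site. The window runs from 250 bases before the start of the gene to 50 bases after it, on the gene's own strand, at chr6:50566520-50566819 of GRCm38.p6 (minus strand, RefSeq), with the matches in capitals.
Cycs: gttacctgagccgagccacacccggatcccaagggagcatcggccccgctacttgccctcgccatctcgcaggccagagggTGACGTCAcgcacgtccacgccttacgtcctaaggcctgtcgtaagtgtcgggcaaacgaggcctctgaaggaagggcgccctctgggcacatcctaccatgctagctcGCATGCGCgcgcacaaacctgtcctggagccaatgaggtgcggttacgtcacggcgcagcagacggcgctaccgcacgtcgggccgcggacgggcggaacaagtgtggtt
The first run of capitals is TGACGTCA, the CRE, which begins 169 bases before the start. The second is GCATGCGC, the NRF1 letters on the opposite strand, 60 bases before the start. Cycs read 11.53, 11.02, 11.60 and 11.78 in Case pups D04, D34, D48 and D52, against 11.68, 11.58, 11.60 and 11.80 in Control pups D02, D40, D50 and D58. Case D34 was far below all other pups, at 0.637 of the Control geometric mean, Case D04 was slightly below the Control range and the other 2 Case pups lay within it. The difference was -0.19 (SE 0.14, adjusted p = 0.768 by limma). Its other 2 probe sets gave -0.11 and -0.19.

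Complex IV, cytochrome c oxidase, passes the electrons to oxygen, and 6 of its 7 measured members were below 0, with a median difference of -0.06. Ndufa4 was counted here, since the protein, named for complex I, has been assigned to complex IV. Cox5a and Cox6a1, both small structural subunits, had the lowest differences of the complex. Their promoters are printed by the same rule as that of Cycs, the values in Case D34. That of Cox6a1 holds NRF1 letters and that of Cox5a holds none of the 5 motifs searched. They lie at chr9:57520982-57521281 (Cox5a, plus strand) and chr5:115348909-115349208 (Cox6a1, minus strand) of GRCm38.p6.
Cox5a: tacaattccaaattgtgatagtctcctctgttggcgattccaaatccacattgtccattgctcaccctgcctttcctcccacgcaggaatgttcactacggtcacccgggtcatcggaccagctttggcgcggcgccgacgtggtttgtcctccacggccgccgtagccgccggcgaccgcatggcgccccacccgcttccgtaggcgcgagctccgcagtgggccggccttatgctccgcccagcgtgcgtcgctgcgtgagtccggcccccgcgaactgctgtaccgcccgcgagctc
Cox6a1: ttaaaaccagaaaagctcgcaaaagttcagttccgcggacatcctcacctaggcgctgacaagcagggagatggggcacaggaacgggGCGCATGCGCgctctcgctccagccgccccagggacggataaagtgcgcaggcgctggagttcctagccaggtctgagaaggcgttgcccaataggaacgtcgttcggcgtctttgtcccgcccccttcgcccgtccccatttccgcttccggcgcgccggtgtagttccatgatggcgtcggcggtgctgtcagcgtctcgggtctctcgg
The capitals in Cox6a1 are 2 overlapping matches to the NRF1 letters, one on each strand, which begin 162 and 160 bases before the start.

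Cox5a read 11.95, 11.44, 12.16 and 12.12 in Case pups D04, D34, D48 and D52, against 11.97, 12.04, 11.97 and 12.23 in Control pups D02, D40, D50 and D58. Cox6a1 read 12.63, 12.34, 12.79 and 12.81 in Case pups, against 12.64, 12.81, 12.73 and 12.89 in Control pups. Both were lowest in Case D34, and the values of Case D48 and D52 lay inside the Control range. Differences were -0.13 for Cox5a (SE 0.15, adjusted p = 0.819 by limma) and -0.13 for Cox6a1 (SE 0.11, adjusted p = 0.785). Cox8a, another small subunit, read 11.50, 11.25, 11.65 and 11.54 in Case pups, against 11.49, 11.55, 11.53 and 11.63 in Control pups, again with Case D34 lowest. Cox4i1, the common form of subunit 4, was the most even member of all. It read 12.72, 12.70, 12.73 and 12.76 in Case pups, against 12.73, 12.70, 12.75 and 12.74 in Control pups, and the difference of -0.00 had an interval of -0.12 to 0.12. The other members were Cox5b at -0.05, Cox6c at 0.01 and Ndufa4 at -0.07.

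Complex V was represented by Atp5b, the catalytic beta subunit of ATP synthase. Atp5b read 12.56, 12.44, 12.56 and 12.70 in Case pups D04, D34, D48 and D52, against 12.61, 12.55, 12.65 and 12.70 in Control pups D02, D40, D50 and D58. Case D34 was lowest and Control D58 highest, and the difference was -0.07 (SE 0.07, adjusted p = 0.817 by limma).

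The 7 TCA cycle members had a median difference of -0.05, with 6 below 0. Sucla2, a subunit of succinyl-CoA synthetase, read 10.77, 10.67, 10.90 and 10.78 in Case pups D04, D34, D48 and D52, against 10.83, 10.87, 10.82 and 10.98 in Control pups D02, D40, D50 and D58. Case D04, D34 and D52 lay below the Control range and Case D48 inside it. That gave the smallest unadjusted p of any member, 0.218, with a difference of -0.09 (SE 0.07, adjusted p = 0.766 by limma). Idh3a, the catalytic subunit of NAD-dependent isocitrate dehydrogenase, read 10.60, 10.28, 10.58 and 10.93 in Case pups, against 10.73, 10.50, 10.77 and 10.85 in Control pups. Ogdh, the first enzyme of the oxoglutarate dehydrogenase complex, read 10.45, 10.05, 10.15 and 10.52 in Case pups, against 10.37, 10.63, 10.27 and 10.33 in Control pups. Both spread widely within each group, with differences of -0.11 for Idh3a (SE 0.13) and -0.11 for Ogdh (SE 0.12). Idh3g, a regulatory subunit of the same isocitrate dehydrogenase, ran against the rest. It read 10.78, 10.93, 10.78 and 10.81 in Case pups, against 10.76, 10.60, 10.85 and 10.84 in Control pups, so Case D34 was its highest pup. The remaining members differed by -0.02 for Cs (citrate synthase), -0.05 for Fh1 (fumarase) and -0.05 for Mdh2 (the mitochondrial malate dehydrogenase).

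Many members varied together from pup to pup. The median member lay at -0.03, -0.18, 0.03 and 0.07 from the Control mean in Case pups D04, D34, D48 and D52, against -0.00, -0.09, 0.02 and 0.09 in Control pups D02, D40, D50 and D58. Over all genes the medians were -0.01, -0.04, 0.03 and -0.00 in Case pups and 0.00, -0.05, 0.01 and 0.03 in Control pups. Summed on the linear scale, member intensity was 97.3%, 85.7%, 103% and 104% of the Control mean in Case pups, against 98.3%, 94.7%, 100.31% and 107% in Control pups. A single pup of each group stood low, Case D34 and Control D40, and Control D58 stood high, as the plot of members by pup shows.

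**Figure D2:**
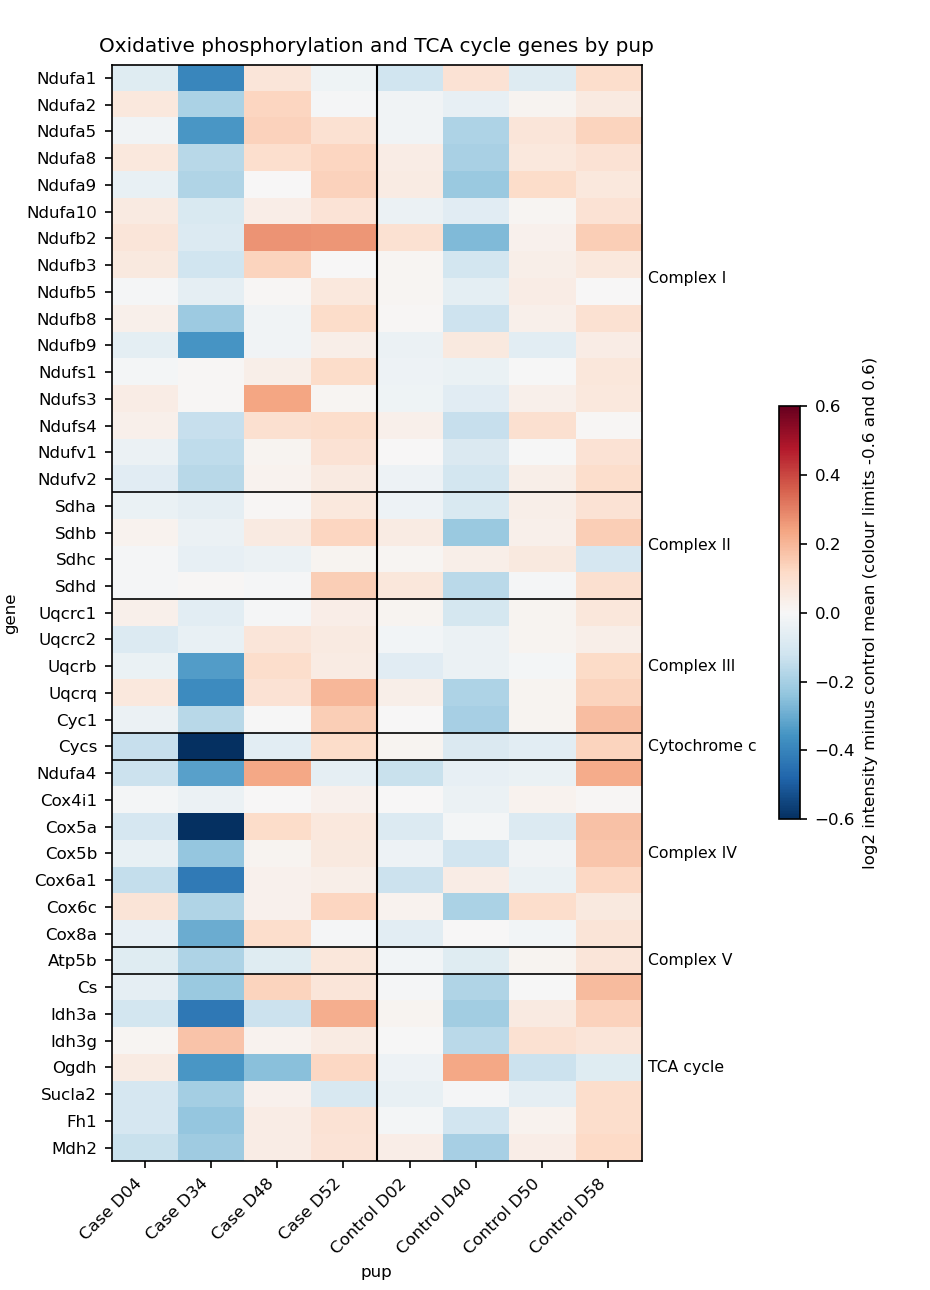
Log2 intensity of each of 41 members minus its Control mean, by pup (columns, Case left and Control right) and by complex (rows), with colours limited at -0.6 and 0.6. The column of Case D34 is mostly blue, at a median of -0.18, with complex II near 0, and Control D58 is mostly red, at 0.09.

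Case D34, the pup with the highest Fgf18, was the lowest of all 8 pups in 26 of 41 members (63.4%), against 30.2% of all genes. Control D40 was lowest in 13 members (31.7%, against 24.6% of all genes). Control D58 was highest in 17 members (41.5%, against 13.1%) and Case D52 in 12 (29.3%, against 9.23%). Case D34 lay below every Control pup in 27 of 41 members (65.9%), against 38.4% of all genes and 38.1% of those at least as bright as the dimmest member. By complex these were 10 of 16 in complex I, 0 of 4 in complex II, 3 of 5 in complex III, Cycs, 6 of 7 in complex IV, Atp5b, and 6 of 7 in the TCA cycle. The median member in Case D34 was at -0.16 in complex I, -0.04 in complex II, -0.17 in complex III, -0.30 in complex IV and -0.22 in the TCA cycle. With 1 pup there is no replicate for this pattern, and it carries no test.

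Some other gene lists were also low in Case D34 and others were not. The median of 7 markers of dividing cells was -0.65 in Case D34 and 0.04 to 0.13 in the other Case pups, against -0.11 to 0.16 in Control pups. Their summed intensity was 68.8% of the Control mean in Case D34 and 103% to 109% in the other Case pups, against 91.2% to 108% in Control pups. Summed intensity in Case D34 was 26.7% of the Control mean for 16 heart and skeletal muscle markers, 42.7% for 7 club cell markers, 63.5% for 8 ciliated cell markers and 59.5% for 7 smooth muscle markers. The lowest Control pup stood at 90.4%, 89.5%, 95.9% and 98.7% for the same lists. Such sums mostly follow the brightest markers. Among the ciliated markers that was Tubb4b, with a Control mean of 11.80 against 8.87 for the next, Dynlrb2. Tubb4b stood at 0.654 of its Control geometric mean in Case D34, and the median ciliated marker lay at -0.61 there. Alveolar type 2 markers summed to 103% of the Control mean in Case D34, but single markers ran from -0.82 for Abca3 to 0.80 for Etv5. The median marker in Case D34 lay at 0.05 for alveolar type 2 cells and 0.03 for macrophages. Single macrophage markers ran from -0.30 for Csf1r to 1.88 for Chil3. The median marker lay at -0.54 for alveolar type 1 cells, -0.36 for erythroid cells and -0.30 for endothelium. The part of these cell types in the member values was not tested.

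Without the library labelled Case D52 the members moved lower, since that library was high for most of them. The median difference was then -0.07, with 34 of 41 members below 0. Still 0 of 41 passed the adjusted threshold of limma (0.0467% of all genes), 0 had an unadjusted p under 0.05 (12.7% of all genes) and 0 had groups that did not overlap (13.7% of all genes). Cycs had the smallest adjusted p, 0.426, at -0.28, and Idh3a followed at -0.22 with an adjusted p of 0.435. Leaving out Case D34 instead gave a median of 0.02, with 31 members above 0 and 10 below, 0 past the adjusted threshold (0.00778% of all genes) and 0 at an unadjusted p under 0.05 (4.57% of all genes). Over all genes the median was then 0.00, with 50.2% above 0. The direction of the median member thus differed between the sets with and without Case D34.

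A further 108 genes of the pathway were listed. Of the 100 tested, 49 were above 0 and 51 below, with a median of -0.01, and limma called 0 at either p. Ndufa7, a complex I accessory subunit, was the 1 gene of 100 whose groups did not overlap (3.96% of all genes). Ndufa7 read 11.31, 11.29, 11.23 and 11.28 in Case pups D04, D34, D48 and D52, against 11.21, 11.11, 11.21 and 11.16 in Control pups D02, D40, D50 and D58. All Case pups were above all Control pups, by little: the difference was 0.10 (SE 0.06, adjusted p = 0.736 by limma). Ndufb11 of the same complex was at 0.11.

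In the other complexes no gene passed either threshold. Complex III gave 0.07 for Uqcr10 and -0.04 for Uqcrfs1, the Rieske iron-sulfur protein. Complex IV gave -0.23 for Cox4i2, the subunit 4 form best known from lung, and 0.16 for Cox7c. Cox4i2 read 7.46, 7.09, 7.65 and 7.30 in Case pups D04, D34, D48 and D52, against 7.42, 7.78, 7.47 and 7.77 in Control pups D02, D40, D50 and D58, with Case D34 lowest, Control D40 highest and the groups overlapping (SE 0.13, adjusted p = 0.736 by limma). Complex V gave 0.09 for Atp5g2, a form of subunit c, and 0.08 for Atpif1, the inhibitor of ATP synthase.

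Suclg2, which encodes the GTP-specific alternative to the ADP-specific Sucla2 subunit of succinyl-CoA synthetase, stood on the other side of 0. It read 9.84, 10.18, 9.88 and 9.61 in Case pups D04, D34, D48 and D52, against 9.64, 9.72, 9.69 and 9.63 in Control pups D02, D40, D50 and D58. Case D04, D34 and D48 were above all Control pups, and the library labelled Case D52 was below them. The difference was 0.20 (SE 0.11, adjusted p = 0.736 by limma) and 0.29 without Case D52 (unadjusted p = 0.0111, adjusted p = 0.243). Idh2, the NADP-dependent mitochondrial isocitrate dehydrogenase, was at -0.08.

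Of 17 assembly factors 15 were above 0 and 2 below (11.8%, against 55.0% of all genes), with a median of 0.07. None passed either threshold. Control D40 was lowest in 11 of the 17 (64.7%, against 24.6% of all genes). Case D48 was highest in 10 (58.8%, against 21.4%). The median factor lay at 0.02, -0.03, 0.19 and 0.03 from the Control mean in Case pups D04, D34, D48 and D52, and at -0.15 in Control D40. Sco2, which delivers copper to complex IV, was at 0.09 and Surf1, another complex IV factor, at 0.11. Regulators of mitochondrial biogenesis were 6 above and 6 below. Esrra, the estrogen-related receptor of respiratory genes, was at -0.11 (adjusted p = 0.736 by limma), its relative Esrrg at -0.14, Nrf1 at 0.09, Gabpa at 0.07 and Tfam, the mitochondrial transcription factor, at 0.10. The fusion proteins Opa1 and Mfn2 were at 0.11 and -0.14. Without the library labelled Case D52, 2 of the 100 pathway genes, Suclg2 and Tfb2m (a factor of mitochondrial transcription), were higher and 4 lower at an unadjusted p under 0.05 (12.7% of all genes), and 0 passed the adjusted threshold (0.0467%).

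The 4 lower ones without Case D52 were the muscle forms of mitochondrial proteins, and among them Cox7a1 and Cox8b had the largest differences of the 100. Several complex IV subunits exist in a form of heart and skeletal muscle and a form of other tissues, and so does the ADP/ATP carrier of the inner membrane. Over all 8 pups the 4 muscle forms Cox7a1, Cox8b, Cox6a2 and Slc25a4 had a median difference of -0.37, 4 of 4 below 0, with none past either threshold; without Case D34 the median was -0.17. Cox7a1 read 6.76, 5.63, 6.89 and 7.76 in Case pups D04, D34, D48 and D52, against 7.22, 7.24, 7.41 and 7.94 in Control pups D02, D40, D50 and D58. Cox8b read 7.79, 6.70, 7.92 and 8.59 in Case pups, against 8.09, 7.93, 8.21 and 8.92 in Control pups. The Cox7a1 value of Case D34 was below the intensity limit of 6.51, so how far it lies below the others is uncertain. In both, the 3 Case pups with high Fgf18 lay below all Control pups and the library labelled Case D52 lay among the higher Control pups. Differences were -0.69 for Cox7a1 (SE 0.37, adjusted p = 0.736 by limma) and -0.54 for Cox8b (SE 0.35, adjusted p = 0.740).

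Cox6a2 read 9.21, 8.94, 8.90 and 9.49 in Case pups D04, D34, D48 and D52, against 9.32, 9.34, 9.29 and 9.44 in Control pups D02, D40, D50 and D58. Slc25a4 read 12.09, 11.89, 12.23 and 12.38 in Case pups, against 12.30, 12.22, 12.27 and 12.41 in Control pups. Their differences were smaller, -0.21 for Cox6a2 (SE 0.12) and -0.15 for Slc25a4 (SE 0.10). Without Case D52 the differences were -1.02 for Cox7a1, -0.82 for Cox8b, -0.33 for Cox6a2 and -0.23 for Slc25a4, with unadjusted p of 0.00692, 0.0280, 0.00536 and 0.0345 and adjusted p of 0.212, 0.332, 0.194 and 0.355 by limma. The groups then did not overlap for the first 3 of these (13.7% of all genes). Without Case D34 instead, the differences were -0.31 for Cox7a1, -0.19 for Cox8b, -0.15 for Cox6a2 and -0.07 for Slc25a4, with 0 of 4 at an unadjusted p under 0.05 (4.57% of all genes).

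Each muscle form was set against the other form of the same protein, as the plot of paired forms shows. The Case minus Control difference was more negative in the muscle form by -0.65 for Cox7a1 against Cox7a2, -0.48 for Cox8b against Cox8a, -0.21 for Slc25a4 against Slc25a5 and -0.08 for Cox6a2 against Cox6a1. An exact two-sided permutation test over the 70 arrangements of the pups gave p = 0.114, 0.286, 0.0571 and 0.857, and 0.229, 0.381, 0.229 and 0.857 after Benjamini-Hochberg adjustment over the 4 pairs. None passed the threshold. With only 70 arrangements the smallest possible p is too large for a single pair to pass after this adjustment. Several pairs would have had to reach that smallest p together, so the test cannot decide whether the forms differ.

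**Figure D3:**
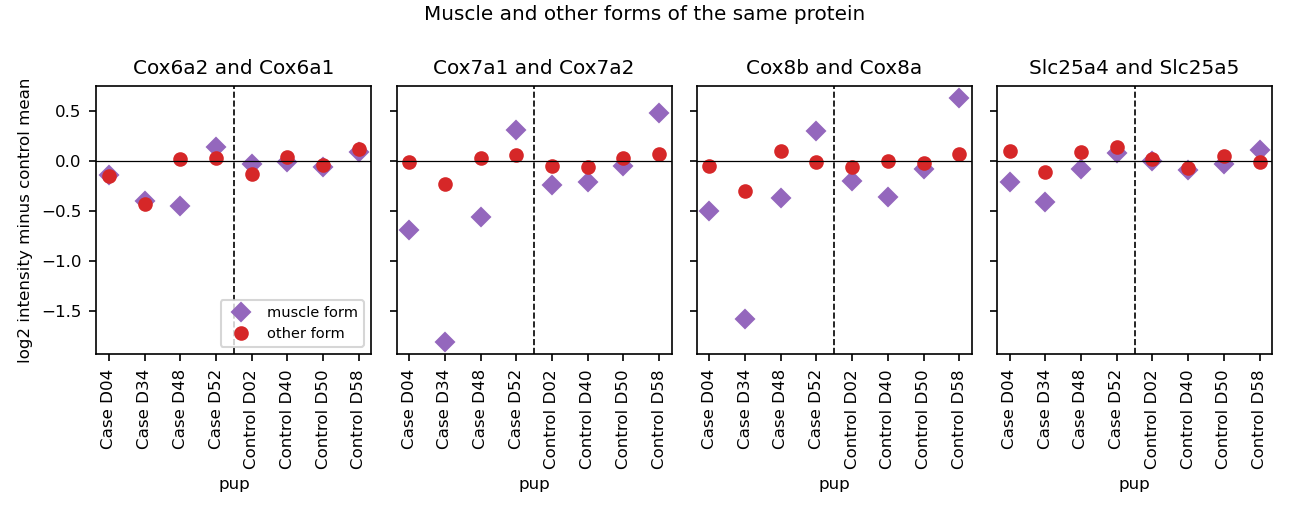
Log2 intensity minus the Control mean in each pup for the muscle form (purple diamonds) and the other form (red circles) of 4 mitochondrial proteins, Case pups left of the dashed line and Control pups right of it. Cox7a1 and Cox8b of Case D34 lie at -1.81 and -1.59, while Cox7a2 and Cox8a of the same pup lie at -0.23 and -0.30; the Cox7a1 value there, 5.63, is below the intensity limit of 6.51.

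Markers of heart and skeletal muscle moved with the muscle forms. Of 16 markers 15 were below 0, with a median difference of -0.63. The exception, Nppa, read 9.29 in Case D52 and 6.39 to 7.07 in all other pups. Of the 16 markers 0 passed the adjusted threshold and 3 were lower at an unadjusted p under 0.05 (4.22% of all genes). Without Case D52, 14 were lower at that p (8.13% of all genes), and without Case D34 the median was -0.30, with 2 at that p (4.57% of all genes). Their median lay at -0.66, -1.71, -0.47 and 0.29 from the Control mean in Case pups D04, D34, D48 and D52, against -0.12, -0.17, -0.09 and 0.34 in Control pups D02, D40, D50 and D58. Summed intensity was 61.1%, 26.7%, 68.2% and 119.5% of the Control mean in Case pups, and 90.4% to 125% in Control pups. The order of the pups was nearly that of the muscle forms, whose median lay at -0.35, -0.9997, -0.41 and 0.22 in Case pups, against -0.11, -0.15, -0.05 and 0.30 in Control pups. Of 6 brown fat markers, Ucp1, Cidea, Elovl3 and Adipoq were below the intensity limit, while Cox8b, itself a muscle form, and Fabp4, a fatty acid carrier of fat and endothelium, were above it. Fabp4 differed by -0.47, and Case D04, D34 and D48 lay below all Control pups. These last 2 summed to 61.6%, 54.4%, 58.2% and 113% of the Control mean in Case pups, against 80.7%, 77.3%, 78.6% and 163% in Control pups. The median member lay at -0.03 in Case D04 and 0.03 in Case D48, with 14 and 31 of 41 members above the Control mean. The part of muscle tissue and fat in the values of the muscle forms, and in those of the members, was not tested.

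**Figure D4:**
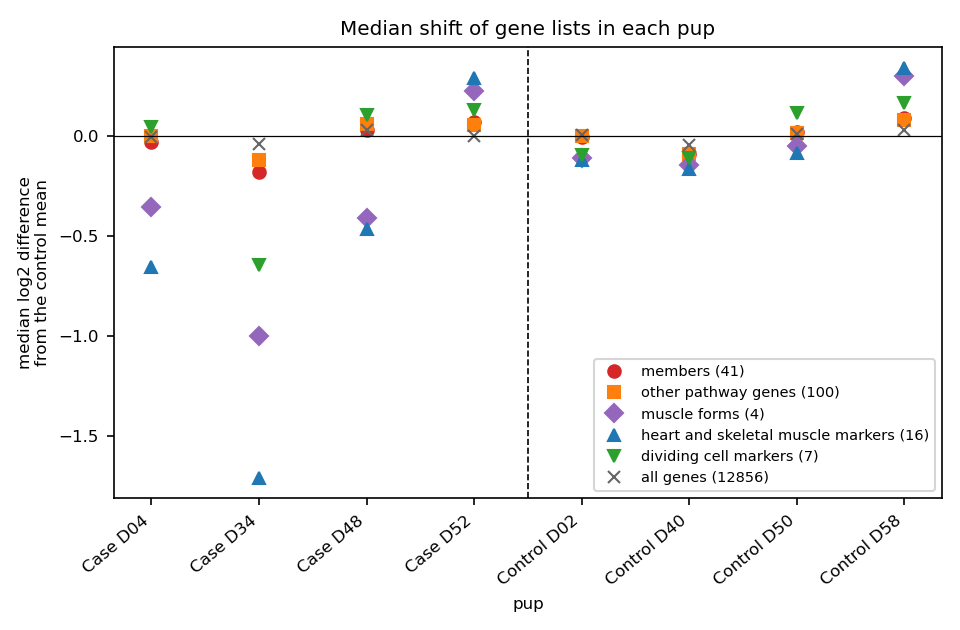
Median log2 difference from the Control mean in each pup for the 41 members, 100 other pathway genes, the 4 muscle forms among them, 16 heart and skeletal muscle markers, 7 dividing cell markers and all 12856 genes. Muscle markers and muscle forms lie low in Case D04, D34 and D48. The median member lies at -0.03, -0.18 and 0.03 in the same pups.

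The promoter of Cox7a1 is shown beside those of the members because it is the pathway gene with the largest difference. It lies at chr7:30183921-30184220 of GRCm38.p6 (plus strand) and none of the 5 motifs was found in it.
Cox7a1: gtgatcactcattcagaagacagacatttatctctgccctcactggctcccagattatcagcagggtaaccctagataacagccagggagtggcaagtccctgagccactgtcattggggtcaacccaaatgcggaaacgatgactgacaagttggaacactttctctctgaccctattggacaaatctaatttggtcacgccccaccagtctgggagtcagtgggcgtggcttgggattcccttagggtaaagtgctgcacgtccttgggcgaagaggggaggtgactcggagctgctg
Windows of the same 300 bases were available for 31 of 42 members and for 27025 genes in all. The letters were GCGCATGC for NRF1, CCGGAAGT for GABPA, AAGGTCA for ERRalpha, AAGATGGC for YY1 and TGACGTCA for the CRE, searched on both strands with overlaps allowed, and no match to one motif overlapped a match to another in the printed windows.

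The NRF1 letters were in 6 of 31 member promoters (19.4%, against 3.05% of all promoters): Ndufa8, Sdhb, Uqcrc1, Cycs, Cox6a1 and Ogdh. The CRE was in 5 (16.1%, against 2.03%): Ndufa10, Ndufb2, Cycs, Ogdh and Mdh2. YY1 letters were in 4 (12.9%, against 3.19%), ERRalpha letters in 3 (9.68%, against 5.38%) and GABPA letters in 2 (6.45%, against 4.31%). At least 1 motif was found in 16 members and none in 15. Member promoters also held more G and C, a median of 60% against 52.8% in all promoters; the shares above are not matched for this. Among the 6 members with NRF1 letters the differences ran from -0.19 for Cycs to 0.04 for Sdhb, so carriers of the same letters lay on both sides of 0.

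Most members could be read more than once. The 26 members with several probe sets above the limit and the 15 with 1 gave 80 probe sets, none past the adjusted threshold of limma and none at an unadjusted p under 0.05. Their differences ran from -0.22 to 0.13. Probe sets of one gene differed in sign for 8 members (Cox6c, Ndufa10, Ndufb5, Ndufb8, Ndufs4, Ndufv1, Sdhc and Sucla2). For Cox6c they gave 0.01 and -0.08, and for Sucla2 -0.09, 0.01 and -0.05. Cox5b, Ndufa2 and Uqcrq were read from probe sets whose names mark possible matches to other transcripts, so their values are less certain.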

How the data were processed

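Biotin-labelled total RNA of whole lung was hybridised to Affymetrix arrays, per the labels. The authors deposited linear intensities of 45101 probe sets for each pup. Per the submitters' processing notes, affy was used; how background and scale were handled is not given in the sources here. The 2 deposited tables held identical intensities, and a column of log2 ratios deposited by the authors equalled log2 of D04 over D02 for 45101 probe sets within 1e-05, and was not used further.

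Pups were grouped by title. The log2 of each intensity was used without rescaling. Left out were 64 control probe sets, probe sets with several symbols (932; 34958 had 1) or none, and those whose mean over the arrays was below the 40th percentile (log2 6.51). The brightest probe set per symbol was kept, which gave 12856 of 18194 genes. The comparison used limma 3.58.1 (lmFit, eBayes) under R 4.3.3 (two-sided, Benjamini-Hochberg over all 12856 genes, threshold 0.05), without a litter block. The fit was also run on simulated independent values with planted changes. The only check was that the mean estimates returned those changes, which says nothing about the power to detect them. Pairs of isoforms were compared by exact permutation. Tables, promoter searches and plots were made in Python 3.11.15 with pandas 2.3.3 and matplotlib 3.10.9. Nothing states how the pups of a group relate beyond the 4 litters. The p-values of limma rest on the spread within each group of these 8 arrays, moderated over all genes. Any difference between litters stays in that spread.

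Members and gene lists were chosen with earlier results of these data known. Values per pup are given for the members with the smallest unadjusted p (5 in complex I, 3 in complexes II, III, IV and the TCA cycle, with Cycs and Atp5b), for the brightest member and the one with the largest Control SD, and values for the 2 genes of smallest p in each other pathway list. Idh3g, Cox4i1, Cox8b, Slc25a4, Nrf1, Gabpa, Tfam and Tfb2m were added after their values were seen, as was the choice of promoters and motifs. Alternatives changed the filter, the normalization (quantile, or centring on the median), the choice of probe set, the moderation and the array weights, and left out each array in turn. Promoter sequences are from RefSeq, GRCm38.p6.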

Additional observations from a re-analysis of the deposited data

Results flagged for a closer look

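Among the 82 groups of 4 pups formed by 41 members in Case and in Control, 2 held a pup whose gap to its nearest neighbour took up more of the group's range than Dixon's 95% critical value for 4 samples. Chance would give about 1 in 20, or 4.1 of 82. Sdhd, a membrane anchor of complex II, read 10.92 in Case D52 and 10.76 to 10.78 in the other Case pups, a gap of 0.9134 of the range. Ndufa8, a complex I accessory subunit, read 10.94 in Control D40, while the other 3 Control pups read 11.18 to 11.22, a gap of 0.859 of the range. Neither gene had a difference between Case and Control past the threshold of limma.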

How the results depend on the processing

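In all 15 settings (the one reported and 14 alternatives) 0 of 41 members passed the adjusted threshold of limma. At an unadjusted p under 0.05 there was 1 member with array weights, Mdh2 (adjusted p 0.210, the smallest of any member in any setting), and 0 in the other settings; those weights were 0.261 for Case D34 and 4.86 for Case D04. Of 41 members, 28 were below 0 as reported, 15 after median centring, and 10 (without Case D34) to 37 (without Control D40) when single pups were left out, with 16 without Control D58. The median over all members ran from -0.07 to 0.03 over the alternatives; under median centring it was 0.03, with 0.04 over all genes, since that step moves every gene alike, by 0.05. Of 266 values of the 19 members chosen by the naming rule, 18 had another sign than reported, 3 of them by that uniform shift alone. Median centring gave 0.0303 for Sdhc, 0.0362 for Cyc1 and 0.0410 for Uqcrq, and array weights gave -0.0150 for Sdhb, -0.0233 for Sdhd, 0.0227 for Uqcrq and 0.0848 for Ogdh. Leaving out single pups, the ranges that crossed 0 were -0.0777 to 0.114 for Uqcrq, -0.0321 to 0.0915 for Sdhb, -0.0182 to 0.0677 for Sdhd, -0.0810 to 0.0479 for Cyc1, -0.109 to 0.0384 for Uqcrb, -0.216 to 0.0246 for Cox5a and -0.116 to 0.0174 for Cox8a. The cause of the turns other than those under median centring was not tested. Cycs kept its sign in all 14 alternatives, from -0.28 to -0.03, the last without Case D34. No paired analysis was possible because the labels give no pup's litter. With 4 arrays per group the 95% intervals reached 0.12 to 0.33 on either side of a member's difference. These intervals are not adjusted for the number of genes, so the adjusted threshold could miss larger differences too. Cyp2f2, a club cell marker, differed by -0.56 and had an adjusted p of 0.736 by limma.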
